A study of Homo sapiens with 8 samples.

Results

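The sterol feedback circuit was followed through 8 genes, INSIG1, INSIG2, SCAP, SREBF1, SREBF2, STARD4, MYLIP and ABCA1, on arrays of the colorectal cancer cell line DLD1. The genes were found by their symbols among the non-control probes of the arrays, which gave 11 probes out of 50599, and 8 genes out of 34423 gene names. INSIG2, SREBF1 and ABCA1 had 2 probes each, and the brighter of the pair over all arrays stands for the gene below unless the other is named. Whether a probe lies in coding sequence or in a UTR was not analysed here. The set was selected on knowledge that included measured values of these arrays, as earlier results were known in which the level of INSIG1 was among the most lowered with TSA and with the combination of UHRF1 depletion and TSA. For all 8 genes the values for TSA against mock, with or without UHRF1 depletion, and for the combination are therefore given as a description without a p-value, and nothing is read from how many of them passed a threshold there.

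The study asked how far depletion of UHRF1, which guides the maintenance DNA methyltransferase to newly copied DNA, and inhibition of histone deacetylases alter gene expression in colorectal cancer cells. DLD1 is an established colon adenocarcinoma line, so all values come from cultured cells of a single line. It was transfected for 48 h with a control siRNA (siCONT) or with siUHRF1-1 or siUHRF1-2, each directed against UHRF1, and then received 300 nM trichostatin A (TSA), a histone deacetylase inhibitor, or its ethanol solvent (mock) for another 24 h. Every pairing of control or UHRF1 siRNA with mock or TSA was measured, which made 4 groups of 2 arrays. The depletion is a transient knockdown, and the arrays of a depleted group carry the 2 different siRNAs, which served as its 2 replicates.

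The circuit keeps the cholesterol of membranes within a narrow range. Sterol regulatory element-binding proteins (SREBPs) are made as membrane-bound precursors in the endoplasmic reticulum, where SCAP escorts them to the Golgi for cleavage when sterols are scarce, and where the INSIG proteins hold SCAP back when sterols are plentiful. The released fragments turn on genes of cholesterol and fatty acid synthesis and lipoprotein uptake, and also INSIG1 itself, while liver X receptors (LXRs) sense oxysterols and turn on export and receptor-degrading genes such as ABCA1 and MYLIP.

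The promoter windows of INSIG1, SREBF2 and STARD4 are shown as examples, INSIG1 and STARD4 because their transcripts had the largest changes with TSA in siCONT cells among the 8 genes, and SREBF2 because it held the only match to a sterol regulatory element. SREBF1 was also lower under TSA on its brighter probe, and its window, not printed, held no match. Each window runs from 250 bases before to 50 bases after the RefSeq gene start on GRCh38.p14. The window of INSIG1 is chr7:155297628-155297927 on the plus strand, that of SREBF2 is chr22:41832855-41833154 on the plus strand, and that of STARD4 is chr5:111512486-111512785 on the minus strand. Capitals mark matches to the motifs described in the next paragraph.
INSIG1: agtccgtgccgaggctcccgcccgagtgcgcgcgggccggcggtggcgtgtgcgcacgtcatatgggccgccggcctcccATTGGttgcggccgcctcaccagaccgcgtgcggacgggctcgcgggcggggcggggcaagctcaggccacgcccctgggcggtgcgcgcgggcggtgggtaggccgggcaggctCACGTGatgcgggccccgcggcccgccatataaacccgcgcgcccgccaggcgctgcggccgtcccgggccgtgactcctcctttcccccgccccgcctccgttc
SREBF2: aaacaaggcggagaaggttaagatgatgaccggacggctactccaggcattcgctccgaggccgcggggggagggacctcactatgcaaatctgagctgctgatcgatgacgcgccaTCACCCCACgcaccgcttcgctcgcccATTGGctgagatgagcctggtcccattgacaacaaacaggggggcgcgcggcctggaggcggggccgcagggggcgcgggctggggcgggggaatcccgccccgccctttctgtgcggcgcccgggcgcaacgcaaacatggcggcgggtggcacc
STARD4: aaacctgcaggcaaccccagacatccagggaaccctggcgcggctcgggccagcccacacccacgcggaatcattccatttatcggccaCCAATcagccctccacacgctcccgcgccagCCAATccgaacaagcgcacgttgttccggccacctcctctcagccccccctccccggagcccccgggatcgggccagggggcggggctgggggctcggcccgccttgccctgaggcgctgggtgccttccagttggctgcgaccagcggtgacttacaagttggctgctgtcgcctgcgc

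Windows of all 8 genes were found in RefSeq, with 2 for INSIG2, and 4 motifs were searched in them on both strands. The sterol regulatory element core, spelled TCACNCCAC here, is the kind of site that SREBPs bind. It matched only in SREBF2 among these genes, 133 bases before the start, and in 1.13% of all 35116 RefSeq windows of the same length. CCAAT, the box bound by NF-Y, matched once in INSIG1, once in SREBF2, and at 2 places each in STARD4 and MYLIP, against 34.6% of all windows with at least one match. CACGTG, an E-box, matched in INSIG1, SCAP and ABCA1, against 7.26% of all windows. The direct repeat that LXRs bind, which is AGGTCA followed after NNNN by a second AGGTCA, matched in none of the windows of the 8 genes and in 0.0199% of all windows. No match overlapped another, and a match is only a description of the letters in the window. Counted by gene, 15 of the 20 cholesterol synthesis enzymes had a window, and 13 of these held CCAAT in at least 1. So did 9 of 13 fatty acid synthesis genes with a window and 9 of 15 for uptake and transport. For LXR and its targets it was 7 of 13, and for SREBP processing 3 of 10. These counts are of genes, whereas the share of 34.6% is of windows. The sterol regulatory element core matched in 0 of the windows of each of these lists.

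**Figure D1:**
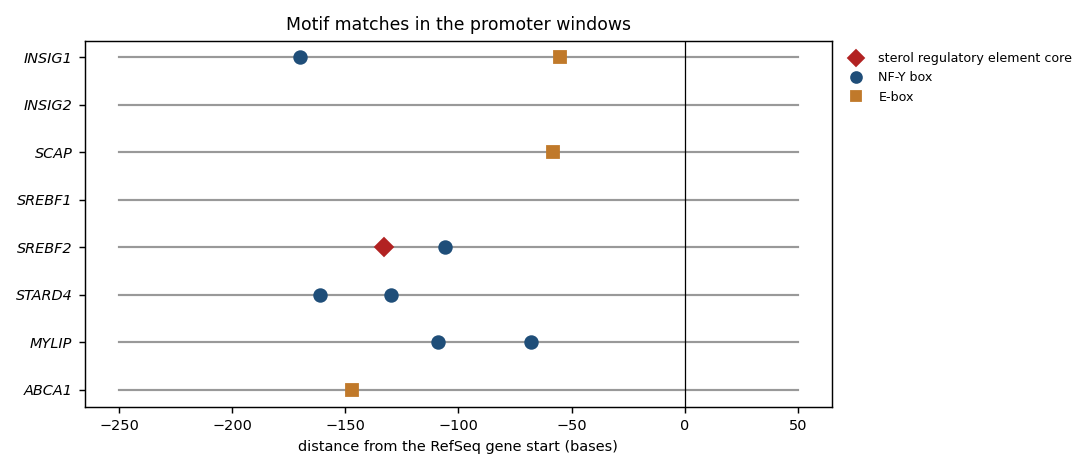
Motif matches in the promoter window of each of the 8 genes, with distance from the RefSeq gene start in bases on the horizontal axis (negative before the start) and one line per gene; for INSIG2, whose 2 windows overlap and hold no match, 1 line is drawn. The diamond marks the sterol regulatory element core of SREBF2 at 133 bases before the start, circles the NF-Y box and squares the E-box; INSIG2 and SREBF1 hold no match.

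A level is the log2 of a probe's intensity minus that of its array's 75th percentile. Per array, 43.3% to 48.0% of probes passed the scanner software's test for signal well above background. The 2 arrays of a siCONT group differed about as much as repeated spots on 1 array, so they were counted as 1 sample in means, which carry no SD, whereas the siUHRF1-1 and siUHRF1-2 arrays differed far more. Each SD given for a depleted group is over its 2 siRNAs (n = 2). The SE of each change uses 1 spread per probe shared by all 4 groups, so it mixes the siCONT arrays with the siRNA arrays. It can be too large for comparisons within siCONT and too small for those with depleted groups. On the single slide, agent went with row and siRNA with column, so that treatment and position cannot be told apart. Nothing says that replicates came from separate cultures, so p-values measure the spread between these arrays, which may be technical. All 11 markers of colon epithelium were well above background on all arrays. Of 14 markers of blood, endothelial, fibroblast and liver cells, 8 (PTPRC, CD3E, PECAM1, COL1A2, COL3A1, ALB, CYP7A1 and APOA2) were above background on no array, while the summed intensity of the 14 was 115 to 126 with siCONT and mock, 200 to 461 with UHRF1 depletion, 291 to 307 with TSA and 570 to 585 with both. Whether that rise had a part in the values below was not tested, and less RNA per cell cannot be told apart from fewer cells in such bulk samples. UHRF1 itself, on its brighter probe, stood at 1.98 and 2.01 on the siCONT mock arrays, 0.34 and −0.02 after depletion, 1.04 and 1.01 under TSA, and −1.55 and −2.14 under both. The fall with depletion was to 28.1% of siCONT under mock (limma adjusted p = 0.0120) and to 13.6% under TSA (limma adjusted p = 0.00234). These p-values count the 2 siCONT arrays of an agent as separate samples, although they differed only by about spot noise.

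INSIG1, one of the proteins that anchor SCAP in the endoplasmic reticulum, was abundant in control cells and far lower under TSA. Its probe (A_33_P3219090, hg19 chr7:155101843-155101902, plus strand) had levels of 5.03 and 5.06 with siCONT and mock, 3.52 and 2.00 with siUHRF1-1 and siUHRF1-2, −0.47 and −0.61 with siCONT and TSA, and −0.20 and −3.15 with the siRNAs and TSA. In intensity, the processed signal was 4487 and 4765 on the siCONT mock arrays, 2175 and 600.5 with the siRNAs, 121 and 111 with TSA, and 130 and 18.4 with the siRNAs plus TSA, and every array stayed well above background. No TSA array overlapped a mock array, and the siUHRF1 mock arrays lay between the siCONT mock and the TSA arrays. TSA against mock in siCONT cells was −5.59 ± 0.95 (log2 change ± SE), that is 2.08% of the mock level, which ranked 2 from the lowest of 23239 probes. The SE is shared with the depleted groups, whose arrays lay much further apart than the siCONT arrays. The combination against siCONT with mock was −6.72 ± 0.95, or 0.949% of the control level, the lowest of 23734 probes. It rested on siRNAs that differed, at −8.20 without the siUHRF1-1 TSA array and −5.24 without the siUHRF1-2 TSA array. In UHRF1-depleted cells TSA gave −4.44 ± 0.95, which ranked 15 from the lowest of 23912 probes, with −3.72 between the siUHRF1-1 arrays and −5.15 between the siUHRF1-2 arrays. Leaving out 1 array moved it to between −5.91 and −2.96, and without the siUHRF1-1 mock array (−3.68) it was not called.

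UHRF1 depletion alone was accompanied by a lower INSIG1 level with either siRNA, but the change was not called. The means were 5.05 with siCONT and 2.76 ± 1.08 (SD, n = 2) with depletion, a change of −2.28 ± 0.95 (SE) that did not pass the test (limma adjusted p = 0.168, and between 0.0425 and 0.642 under the alternatives). With siUHRF1-1 the level was 34.9% of siCONT and with siUHRF1-2 it was 12.1%. The SE also takes in the siRNA arrays under TSA, which lay further apart (SD 2.09, n = 2). Under TSA the siRNAs diverged, since siUHRF1-1 gave 127% and siUHRF1-2 16.4% of the siCONT level. The change there was −1.13 ± 0.95 (limma adjusted p = 0.439) and became 0.34 without the siUHRF1-2 array. The interaction, which is the effect of UHRF1 depletion under TSA minus that under mock, was 1.15 ± 1.35 for INSIG1 (limma adjusted p = 0.60) and −0.33 without the siUHRF1-1 TSA array.

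INSIG2, the other SCAP anchor, is known to respond less to SREBP itself, and its pattern differed from that of INSIG1. The brighter probe (A_33_P3321342, hg19 chr2:118864705-118864764) stood at 2.20 and 2.30 with siCONT and mock, 1.68 and 0.71 with siUHRF1-1 and siUHRF1-2, 1.24 and 1.25 with siCONT and TSA, and 2.13 and 1.70 with the siRNAs and TSA. Levels were thus highest in untreated control cells and with the combination, whose arrays did not overlap those of either single treatment. TSA against mock was −1.01 ± 0.32 in siCONT cells but 0.73 ± 0.32 in depleted cells. Depletion under mock gave −1.05 ± 0.32 (limma adjusted p = 0.0902), which passed the test only when the siUHRF1-1 mock array was left out (−1.54, adjusted p = 0.0139). Under TSA it gave 0.68 ± 0.32 (limma adjusted p = 0.192). The interaction was 1.73 ± 0.45 with a 95% interval of 0.63 to 2.83 before correction, and did not pass after it (limma adjusted p = 0.0755). Leaving out the siUHRF1-1 or the siUHRF1-2 mock array brought it past the threshold, at 2.21 (limma adjusted p = 0.0201) and 1.25 (limma adjusted p = 0.0363), as did the normexp background correction (1.44, limma adjusted p = 0.0455), and its adjusted p lay between 0.0201 and 0.558 over all alternatives. The other INSIG2 probe (A_24_P944458, hg19 chr2:118866964-118867023) had levels between −0.60 and 0.63, with a smaller interaction of 0.65 ± 0.53.

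SCAP, the escort and sterol sensor, had the smallest range over single arrays among the 8 genes, although the group means of MYLIP lay closer together. Its probe (A_23_P252825, hg19 chr3:47455474-47455533) read 3.19 on both siCONT mock arrays, 3.41 and 3.39 with depletion, 2.74 and 2.73 with TSA, and 2.79 and 3.07 with depletion plus TSA. The mock arrays were all above the TSA arrays, and the log2 change with TSA was −0.45 ± 0.13 in siCONT cells and −0.47 ± 0.13 in depleted cells. UHRF1 depletion changed it by 0.21 ± 0.13 under mock (limma adjusted p = 0.309) and by 0.20 ± 0.13 under TSA (limma adjusted p = 0.330), with 95% intervals of −0.10 to 0.53 and −0.12 to 0.51. For SCAP the interaction was −0.02 ± 0.18 (limma adjusted p = 0.963).

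**Figure D2:**
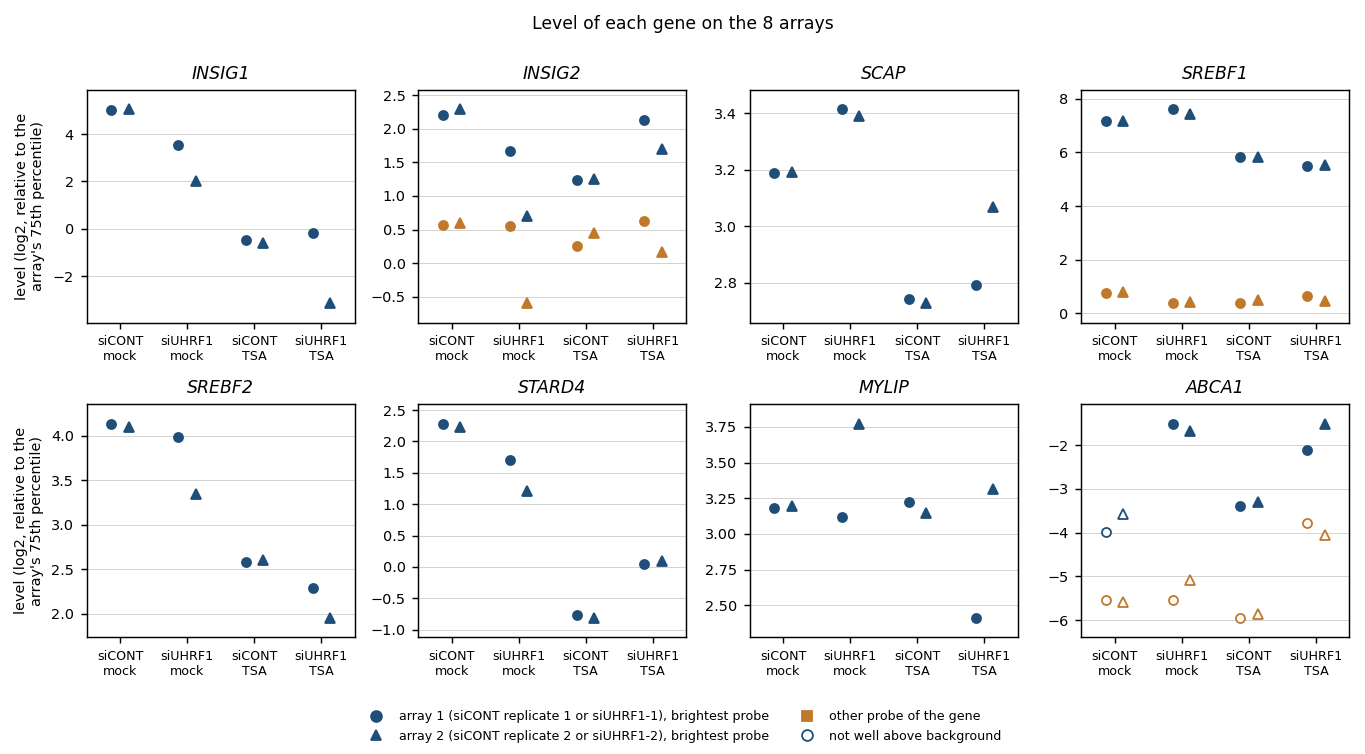
Level of each of the 8 genes on the 8 arrays (vertical axis, log2 minus the array's 75th percentile, scaled per panel), by group. Circles are siCONT replicate 1 or siUHRF1-1, triangles siCONT replicate 2 or siUHRF1-2, orange points the second probe of a gene, and open symbols arrays where the probe was not well above background. INSIG1, SCAP, SREBF1 (brighter probe), SREBF2 and STARD4 lie lower on all TSA arrays than on all mock arrays, the second SREBF1 probe overlaps, and ABCA1 separates by siRNA.

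Transcripts of both SREBP genes were lower under TSA, for SREBF1 on its brighter probe. SREBF1, which encodes SREBP-1 and is known mainly for fatty acid synthesis, was measured by its brighter probe (A_23_P129786, hg19 chr17:17715419-17715478, minus strand) at 7.17 and 7.15 with siCONT and mock, 7.62 and 7.41 with depletion, 5.83 and 5.82 with TSA, and 5.49 and 5.51 with both. The 4 groups did not overlap, and on this probe depleted cells stood above siCONT under mock and below it under TSA. TSA against mock was −1.33 ± 0.12 in siCONT and −2.01 ± 0.12 in depleted cells. Depletion changed SREBF1 by 0.35 ± 0.12 under mock (limma adjusted p = 0.110) and by −0.33 ± 0.12 under TSA (limma adjusted p = 0.108), and the interaction of −0.68 ± 0.17 did not pass (limma adjusted p = 0.0657). The second SREBF1 probe (A_33_P3222139, hg19 chr17:17715304-17715363), only a short distance away on the same gene, was much dimmer and did not follow, with levels of 0.76 and 0.82, 0.37 and 0.42, 0.38 and 0.50, and 0.66 and 0.48 in the same order. Its TSA changes were −0.35 ± 0.12 in siCONT and 0.17 ± 0.12 in depleted cells, so that the probes disagree in size and, in depleted cells, in direction. With depletion it changed by −0.39 ± 0.12 under mock (limma adjusted p = 0.0939) and 0.13 ± 0.12 under TSA (limma adjusted p = 0.504). Its interaction was 0.52 ± 0.17 (limma adjusted p = 0.120). Each of these had the opposite sign to the brighter probe, and none passed.

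SREBF2 encodes SREBP-2, the form known chiefly for cholesterol synthesis and uptake. Its probe (A_23_P419602, hg19 chr22:42302199-42302258) stood at 4.14 and 4.10 with siCONT and mock, 3.99 and 3.35 with siUHRF1-1 and siUHRF1-2, 2.58 and 2.61 with siCONT and TSA, and 2.29 and 1.95 with the siRNAs and TSA. Both TSA groups lay below both mock groups, by nearly the same amount, at −1.52 ± 0.23 in siCONT and −1.55 ± 0.23 in depleted cells, and the combination was at 25.0% of the siCONT mock level. Depletion gave −0.45 ± 0.23 under mock (limma adjusted p = 0.238) and −0.47 ± 0.23 under TSA (limma adjusted p = 0.202). The interaction for SREBF2 was −0.02 ± 0.33 (limma adjusted p = 0.970), with a 95% interval of −0.82 to 0.77.

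STARD4, a carrier that moves cholesterol between membranes and is itself an SREBP-2 target, was the other gene that was much lower under TSA. Its probe (A_23_P327519, hg19 chr5:110834688-110834747, minus strand) read 2.28 and 2.24 with siCONT and mock, 1.70 and 1.21 with siUHRF1-1 and siUHRF1-2, −0.76 and −0.81 with siCONT and TSA, and 0.05 and 0.10 with the siRNAs and TSA. The groups did not overlap, and the order of siCONT and depleted cells was opposite under the agents. TSA against mock was −3.05 ± 0.18 in siCONT cells, or 12.1% of the mock level, but −1.38 ± 0.18 in depleted cells, or 38.3%.

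With UHRF1 depletion the log2 change of STARD4 was −0.80 ± 0.18 under mock (limma adjusted p = 0.0462) and 0.86 ± 0.18 under TSA (limma adjusted p = 0.0252), both short of 2-fold and therefore not called. Averaging the siCONT arrays to 1 sample gave adjusted p of 0.545 and 0.335. Without siCONT mock array 1 or 2 the adjusted p under mock was 0.240 or 0.217, and without siCONT TSA array 1 or 2 that under TSA was 0.139 or 0.152. The interaction was 1.66 ± 0.25, with a higher level than the single effects add up to under the combination, and passed both thresholds (limma adjusted p = 0.0261). It kept its direction in every alternative, between 1.24 and 1.91, but the adjusted p lay between 0.0120 and 0.434. It did not pass without siCONT mock array 1 (1.64, adjusted p = 0.120) or 2 (1.69, 0.111), without siCONT TSA array 1 (1.69, 0.121) or 2 (1.64, 0.126), or without the siUHRF1-1 TSA array (1.69, 0.0555). With the siCONT arrays of an agent averaged to 1 sample, which left 6 samples, STARD4 had an adjusted p of 0.434, with median scaling 0.0716 and with no filter on dim probes 0.0710. Leaving out the siUHRF1-1 mock array took the depletion effect under mock past 2-fold (−1.05, limma adjusted p = 0.00942).

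MYLIP, a ubiquitin ligase that marks lipoprotein receptors for degradation and is an LXR target, showed no common pattern. Its probe (A_33_P3255914, hg19 chr6:16148409-16148468) stood at 3.18 and 3.19 with siCONT and mock, 3.12 and 3.77 with siUHRF1-1 and siUHRF1-2, 3.22 and 3.15 with siCONT and TSA, and 2.41 and 3.31 with the siRNAs and TSA. The siUHRF1-2 array was above the siUHRF1-1 array with either agent, and the siCONT arrays of each agent lay between them. TSA against mock was −0.0035 ± 0.33 in siCONT cells and −0.58 ± 0.33 in depleted cells. Within siUHRF1-1 it was −0.70 and within siUHRF1-2 −0.46. The combination against siCONT with mock was −0.33 ± 0.33. UHRF1 depletion gave 0.26 ± 0.33 under mock (limma adjusted p = 0.628) and −0.32 ± 0.33 under TSA (limma adjusted p = 0.529), with 95% intervals of −0.56 to 1.07 and −1.14 to 0.49. Its sign changed under mock without the siUHRF1-2 array (−0.07) and under TSA without the siUHRF1-1 array (0.13). The interaction for MYLIP was −0.58 ± 0.47 (limma adjusted p = 0.449).

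ABCA1, the transporter that loads cellular cholesterol onto apolipoprotein A-I and a classical LXR target, was the only one of the 8 genes called higher with UHRF1 depletion. Its brighter probe (A_24_P235429, hg19 chr9:107543704-107543763, minus strand) was not well above background on either siCONT mock array, at −3.99 and −3.57, and read −1.51 and −1.69 with siUHRF1-1 and siUHRF1-2, −3.39 and −3.29 with siCONT and TSA, and −2.11 and −1.52 with the siRNAs and TSA. All 4 arrays of depleted cells lay above all 4 siCONT arrays, whatever the agent. Against the background limit of the siCONT mock arrays, the increase with depletion was at least 3.48-fold under mock (limma adjusted p = 0.0106 for the fitted change), and the combination was at least 2.99-fold higher. Here the limit is the lowest signal among probes well above background on an array, or the probe's own signal where that is higher. Under mock the probe was tested only because the depleted arrays passed the background test, so its p-value there is no separate support for a rise. Under TSA, where ABCA1 was above background in all arrays, depletion raised it 2.89-fold, a log2 change of 1.53 ± 0.24 (limma adjusted p = 0.0126).

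These ABCA1 calls rested on both siCONT arrays. Without siCONT mock array 1 or 2 the adjusted p under mock was 0.0778 or 0.0544, and without siCONT TSA array 1 or 2 that under TSA was 0.0914 or 0.0817. The change under mock stayed between 1.97 and 2.39 and that under TSA between 1.23 and 1.83 when any single array was left out. With the siCONT arrays averaged to 1 sample the adjusted p was 0.178 under mock and 0.168 under TSA, and with the normexp background correction both changes of ABCA1 shrank to 0.57. TSA alone left the siCONT level at or near the limit, at least 1.04-fold above it, and gave −0.22 ± 0.24 in depleted cells. The second ABCA1 probe (A_33_P3422897, hg19 chr9:107624012-107624071) was above background on no array and was not tested.

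**Figure D3:**
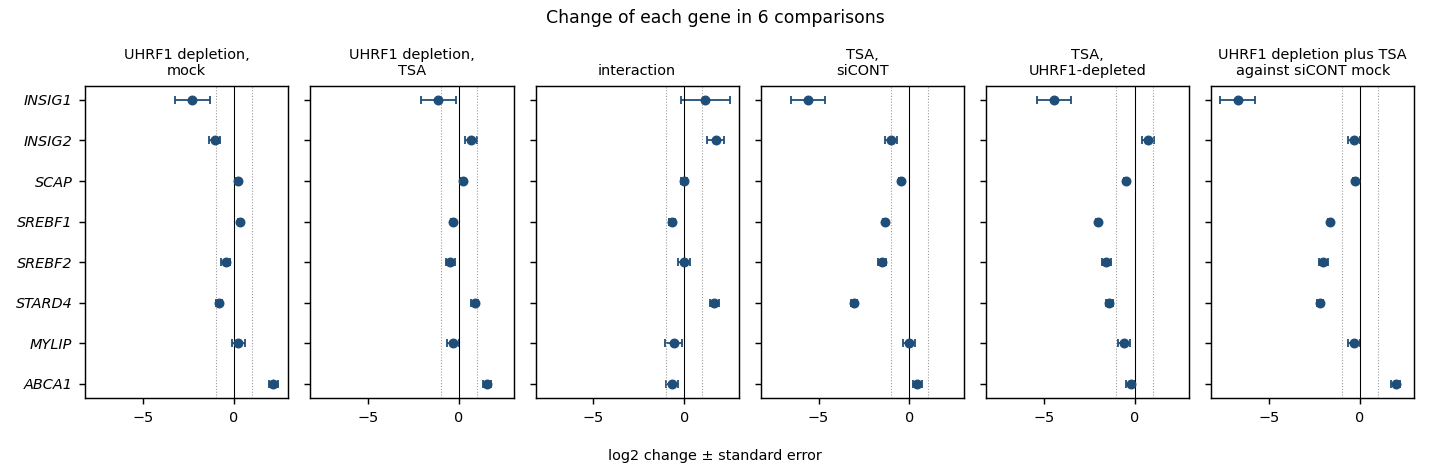
Log2 change of each gene (horizontal axis, points) with its standard error (bars) in 6 comparisons, each on the brighter probe, with dotted lines at 2-fold in either direction. The values of TSA against mock and of the combination are lowest for INSIG1, at −5.59, −4.44 and −6.72, and the depletion panels show ABCA1 at 2.18 under mock, where the fitted change of this gene is no bound, and 1.53 under TSA.

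With UHRF1 depletion under mock 1 of the 8 genes was called (adjusted p under 0.05 and at least 2-fold), ABCA1, which was higher, where 4.11% of all 22391 probes tested were called and 3.13% were called higher. ABCA1 entered that test only through the depleted arrays, as no siCONT mock array was well above background, so nothing is read from this call. Depletion under TSA again called ABCA1 alone, higher, against 8.26% of 23844 probes, 5.39% higher and 2.87% lower. For the interaction 1 of the 8 was called, STARD4, against 4.89% of 24589 probes, of which 2.83% were called higher and 2.07% lower. The median change of the 8 genes was −0.12 under mock and −0.06 under TSA, where all probes tested had medians of −0.10 and 0.00. With TSA in siCONT cells 5 of the 8 were called lower, INSIG1, INSIG2, SREBF1, SREBF2 and STARD4, where 18.6% of all probes were called, 10.4% higher and 8.21% lower. Of these, INSIG2 was just past the minimum, at 2.01-fold lower, was not called in 13 of 21 alternatives, and changed by −0.23 on its other probe. In depleted cells 4 of the 8 were called lower with TSA, INSIG1, SREBF1, SREBF2 and STARD4, where 20.7% of all probes were called, 11.7% higher and 9.01% lower. In the combination those 4 were called lower and ABCA1 higher, where 25.6% of all probes were called, 14.5% higher and 11.1% lower. The comparisons share arrays with each other, so that these counts are not separate observations. As the set was chosen with values of TSA and of the combination known, the counts for TSA and the combination are a description. They are not read as enrichment over the shares of all probes.

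With the siCONT arrays of an agent averaged to 1 sample, 0 of the 8 were called by limma with depletion under mock (0.0223% of all probes) and 0 under TSA (0.692%), with 2 at an unadjusted p under 0.05 in each. As a description only, TSA in siCONT cells then called 1 of the 8 (1.56% of all probes), TSA in depleted cells 4 (17.6%) and the combination 5 (15.4%). For the interaction it called 0 of the 8 and 0% of all probes, with 2 of the 8 at an unadjusted p under 0.05.

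The 2 siRNAs differed in size of effect for several genes. Under mock, siUHRF1-2 left less transcript than siUHRF1-1 of INSIG1 (12.1% against 34.9% of siCONT), INSIG2 (34.4% against 67.4%), SREBF2 (58.6% against 91.4%) and STARD4 (48.3% against 68.0%). UHRF1 was also lower on the siUHRF1-2 array than on the siUHRF1-1 array with either agent. Under TSA, STARD4 was at 178% and 185% of siCONT and INSIG2 at 185% and 138%, all above it, while INSIG1 and MYLIP lay on opposite sides of siCONT with the siRNAs. As each siRNA was on 1 array per agent, a difference between the siRNAs has no replicate check. TSA against mock within siUHRF1-1 and within siUHRF1-2 was 0.45 and 1.00 for INSIG2, −2.13 and −1.90 for SREBF1, −1.70 and −1.39 for SREBF2, and −1.66 and −1.11 for STARD4.

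**Figure D4:**
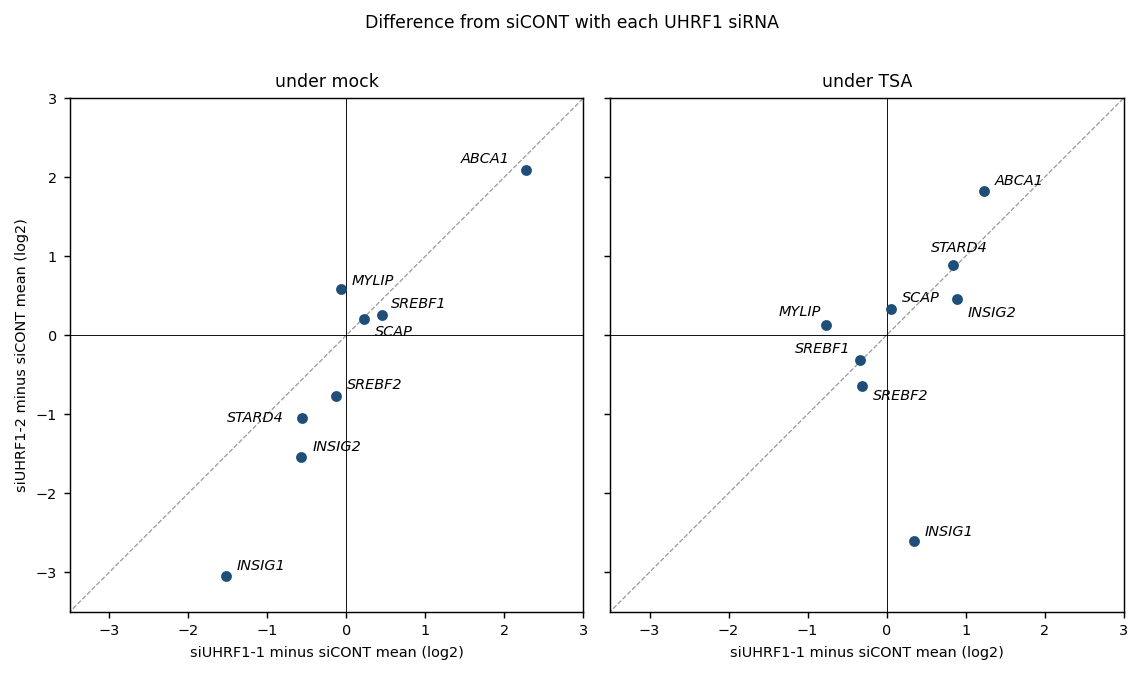
Log2 difference from the mean of the siCONT arrays with siUHRF1-1 (horizontal axis) and siUHRF1-2 (vertical axis) for each gene, under mock (left) and TSA (right), with the line of equal values dashed. ABCA1 is above 0 with both siRNAs in both panels, STARD4 and INSIG2 move from below 0 under mock to above 0 under TSA, and INSIG1 under TSA lies at 0.34 with siUHRF1-1 and −2.61 with siUHRF1-2.

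The genes that SREBPs act on were measured through the same fit, as lists of cholesterol synthesis enzymes and fatty acid synthesis genes. Of 20 cholesterol synthesis enzymes, all tested, 16 were called lower with TSA in siCONT cells, 16 in depleted cells and 16 in the combination, with median changes of −1.67, −1.28 and −1.67, and no member was called higher. Of all probes, 8.21%, 9.01% and 11.1% were called lower in these comparisons. The counts of enzymes became 2, 16 and 15 when the siCONT arrays were averaged. SQLE, the epoxidase that commits squalene to sterols, stood at 3.79 and 3.74 with siCONT and mock and at 0.96 and 1.14 in the combination, a change of −2.72 ± 0.13. MSMO1, a C4-methylsterol oxidase, had a mean of 1.13 with siCONT and mock and of −2.49 ± 0.72 (SD, n = 2) in the combination, a change of −3.62 ± 0.35. Depletion alone called 2 of the 20, MSMO1 (−1.55) and HMGCS1 (−1.17), which makes the precursor HMG-CoA and was named after its value was seen, and with the siCONT arrays averaged their limma adjusted p was 0.477 and 0.464. Of all probes, 0.987% were called lower with depletion alone. There 14 of the 20 enzymes had a limma unadjusted p under 0.05, and 16 were lower and 4 higher. Their median change was −0.37, where all probes tested had a median of −0.10.

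Of 15 fatty acid synthesis genes 13 were tested, and 7 were called lower and 1 higher in the combination, with a median of −1.17. Of all probes, 11.1% were called lower there and 14.5% higher. SCD, the stearoyl-CoA desaturase, changed by −2.16 ± 0.21 and FASN, the fatty acid synthase, by −1.94 ± 0.35, whereas FADS1, a desaturase of polyunsaturated fatty acids, rose by 1.97 ± 0.23. TSA alone gave 6 lower and 1 higher, with a median of −0.69, and the same counts in depleted cells, with a median of −0.86. Of all probes, TSA called 8.21% lower and 10.4% higher in siCONT cells, and 9.01% lower and 11.7% higher in depleted cells. With the siCONT arrays averaged, 3 of the 13 were called in the combination, 0 with TSA in siCONT cells (7 had an unadjusted p under 0.05) and 5 in depleted cells. After depletion under mock none of the 13 was called by limma, and 1 had an unadjusted p under 0.05.

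Of the 16 listed genes that process and degrade SREBPs, all were tested, and 3 were called lower in the combination, where 11.1% of all probes were called lower. These were FBXW7 (−1.31 ± 0.17), a ubiquitin ligase subunit that targets nuclear SREBPs, ERLIN1 (−1.24 ± 0.21), a membrane scaffold, and MBTPS2 (−1.05), the site-2 protease, which was named after its value was seen. Averaging the siCONT arrays left 1 of the 16 called. With TSA in siCONT cells and with depletion under mock limma called none of the 16, and 3 and 4 had an unadjusted p under 0.05. Their median change in the combination was −0.25, close to the −0.14 of all probes tested.

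Among 18 genes of cholesterol uptake, esterification and transport, 14 were tested in the combination, of which 3 were called lower and 2 higher. Of all probes, 11.1% were called lower there and 14.5% higher. TMEM97, which binds the lysosomal cholesterol exporter NPC1, changed by −1.97 ± 0.21 and VLDLR, a lipoprotein receptor, by −1.37 ± 0.33, and LRP8 (−1.20), a related receptor, was named after its value was seen, while GRAMD1C, a membrane contact-site sterol carrier, rose by 2.31 ± 0.20 and SOAT1, which esterifies cholesterol, by 1.19 ± 0.33. With the siCONT arrays averaged, the adjusted p was 0.0252 for TMEM97, 0.0155 for GRAMD1C, 0.119 for VLDLR and 0.158 for SOAT1, and 2 of the 14 were called. Depletion under mock called none of the 13 tested by limma, and 2 had an unadjusted p under 0.05.

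LXR and its targets, the list to which ABCA1 and MYLIP belong by function, split by gene. Of 17 genes 15 were tested in the combination, and 3 were called, all higher, where 14.5% of all probes were called higher. Of these 3 genes, 2 were called when the siCONT arrays were averaged. PLTP, the phospholipid transfer protein, was not above background on the siCONT mock arrays and was at least 10.4-fold higher in the combination. It was tested there only through the combination arrays, so nothing is read from its call. The next of the 3 genes, APOE, an apolipoprotein, changed by 2.23 ± 0.31. The last of them was RXRA (1.25), the partner of LXRs, which was named for the combination after its value was seen and which was also the only gene of this list called after depletion under mock (1.94, limma adjusted p = 0.00694, and 0.175 with the siCONT arrays averaged). Of all probes, 3.13% were called higher after depletion under mock. APOC1, named after its value was seen, was not above background on the siCONT TSA arrays. For depletion under TSA it was therefore tested only through the depleted arrays. Its bound there, at least 1.98-fold, is under the 2-fold minimum, so nothing is read from its call. Under TSA depletion called 3 genes of the list higher, APOE (1.61), PLTP (1.86) and APOC1, where 5.39% of all probes were called higher. With the siCONT arrays averaged it called 0 of the list, with 3 at an unadjusted p under 0.05. TSA called PLTP higher in siCONT and in depleted cells and APOE (1.95) in depleted cells, whereas APOC1 was called lower with TSA in both, by at least 3.24-fold in siCONT cells, where it was not above background with TSA, and by a log2 change of −1.65 in depleted cells. The median of the list was 0.04 after depletion under mock and −0.15 in the combination.

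**Figure D5:**
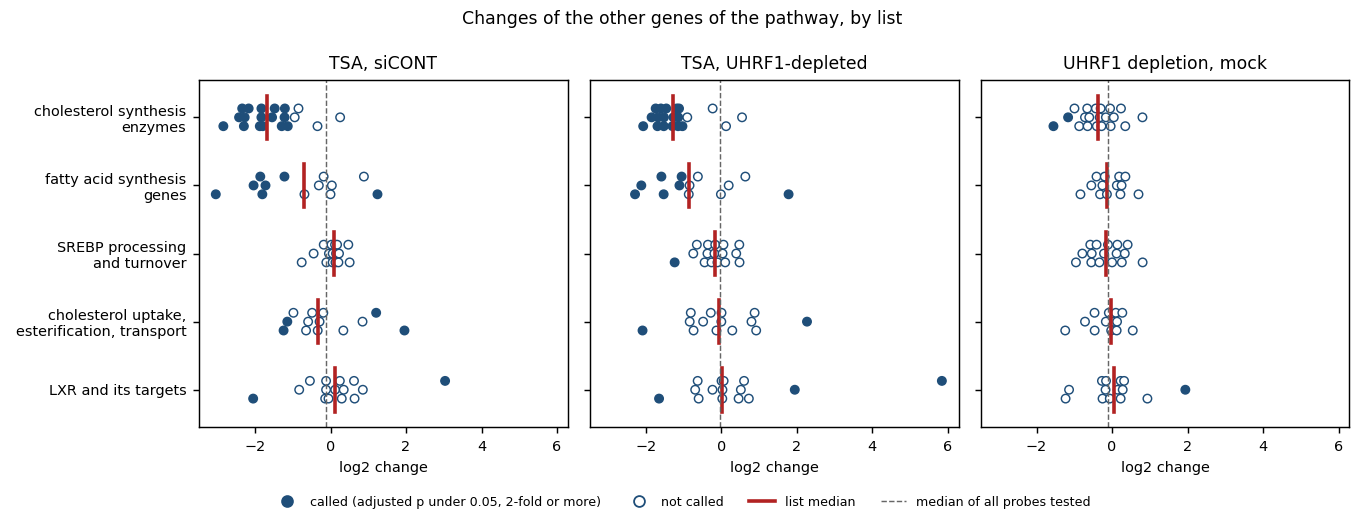
Log2 change (horizontal axis) of each tested gene of 5 lists in the TSA comparisons and after UHRF1 depletion under mock. Filled points were called, red bars are list medians and the dashed line is the median of all probes tested. With TSA the cholesterol synthesis enzymes centre on −1.67 in siCONT and −1.28 in depleted cells, while the SREBP processing list stays near the dashed line.

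The genes whose levels followed INSIG1 most closely over the 8 arrays were ACAT2, RBCK1, NEAT1, ANAPC1 and PTCD3, with Pearson correlations of 0.99, 0.99, 0.98, 0.98 and 0.98 among 3409 probes whose group means spanned at least 2 on the log2 scale. ACAT2, a thiolase early in the sterol pathway, had mean levels of 5.82, 5.16, 3.99 and 3.64 in siCONT mock, depleted mock, siCONT TSA and depleted TSA cells. These correlations are over 8 arrays that share 4 treatments and are a description. Among the 8 genes themselves, the correlation with INSIG1 was 0.98 for SREBF2, 0.88 for STARD4, 0.86 for SREBF1, 0.61 for SCAP, 0.38 for INSIG2, 0.12 for MYLIP and −0.40 for ABCA1, over the same arrays.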

How the data were processed

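Total RNA of DLD1 cells was labelled with Cy3 and hybridised to Agilent SurePrint G3 arrays, 1 colour and 1 array per sample. The deposited scanner files hold the processed intensity of each spot, which the authors obtained with Feature Extraction, already background-corrected per the file headers, and probe positions on hg19. Control probes were left out, spots of a probe were averaged, and log2 intensity minus the 75th percentile of the array was the level. Group means over the 8 arrays were estimated by limma 3.58.1 under R 4.3.3 (4 residual degrees of freedom), with 2-sided p-values adjusted by Benjamini-Hochberg over all probes tested, that is, those whose signal was well above background on each array of 1 or more of the groups compared. A call needed adjusted p under 0.05 and at least 2-fold. The members and lists were chosen with earlier results of these data known. All 8 members are named, and per list at most 4 other genes, the 2 that rose most and the 2 that fell most among those called in the combination; exceptions are marked where they stand. Scaling, background correction, filters, probe choice, averaged siCONT arrays, the methods' t-test, a replicate block and leaving out each array were tried as alternatives. The fit was tested on simulated data. The number of arrays limits the precision.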

Additional observations from a re-analysis of the deposited data

Results flagged for a closer look

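STARD4 was singled out because the effect of UHRF1 depletion differed between the agents by a test of the difference itself. Depletion under TSA minus depletion under mock was 1.66 on the log2 scale (limma adjusted p = 0.0261), from −0.80 under mock and 0.86 under TSA, each with the same sign for both siRNAs. When single arrays were left out the value lay between 1.42 and 1.91 and the adjusted p between 0.0120 and 0.126, and with the siCONT arrays averaged to 1 sample the adjusted p was 0.434. No cause of the difference was tested.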

How the results depend on the processing

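Of 986 alternative values for the 8 genes in 6 comparisons, 906 kept direction and side of the threshold, 47 no longer passed, 12 newly passed and 21 changed sign, of which 0 had an adjusted p under 0.05. The count of the 8 genes called with depletion under mock was 0 when probes below background on any array were dropped, with the siCONT arrays averaged and with the methods' t-test after Benjamini-Hochberg, and 2 with no fold minimum, where 1917 of 22391 probes were called. Under TSA it was 0 with the same settings and with normexp, and 2 with no fold minimum, where 4169 of 23844 probes were called. Dropping probes below background on any array removed ABCA1 itself, the only one of the 8 called under either agent, and left 7 tested. The counts of 0 with that filter therefore say nothing about ABCA1. With TSA in siCONT cells it was 1 with averaged siCONT arrays and 3 with the mean of all probes. The methods' t-test gave 3 in the combination after Benjamini-Hochberg, and in depleted cells 2 unadjusted and 0 after it, and was not run for the interaction. After Benjamini-Hochberg that test called 0 of all probes with depletion under either agent and with TSA in depleted cells, so its counts of 0 there say nothing about these genes. The interaction count was 0 with median scaling, no filter or averaged siCONT arrays, and 2 with normexp. Leaving out 1 array gave 0 to 3 with depletion under mock, 0 to 1 under TSA, 4 to 5 with TSA in siCONT and in depleted cells, 5 in the combination and 0 to 2 for the interaction.

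Signs changed for SREBF1 with depletion under mock with the mean of its probes (−0.0196), for MYLIP with TSA in siCONT cells with quantile normalization (0.15), the percentile over probes above background on all arrays (0.13) and normexp (0.0499), and for ABCA1 there with normexp (−0.0808). SCAP with depletion under TSA was −0.16 with median scaling. In the interaction SCAP was 0.0031 with quantile normalization and 0.0136 with the percentile over probes above background, SREBF2 was 0.0063 with the latter and ABCA1 0.0056 with normexp. With 1 array left out, MYLIP ranged from −0.0728 to 0.58 with depletion under mock, from −0.0392 to 0.0323 with TSA in siCONT cells, from −0.78 to 0.12 in the combination and from −0.77 to 0.13 with depletion under TSA. INSIG1 ranged from −2.61 to 0.34 with depletion under TSA and from −0.33 to 2.62 in the interaction, ABCA1 from −0.51 to 0.0794 with TSA in depleted cells, and in the interaction SCAP from −0.15 to 0.12 and SREBF2 from −0.34 to 0.30. The cause of these moves was not tested.

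Median scaling moved the median of all probes tested to −0.54 in the combination and −0.35 with depletion under TSA, and the share of calls that were higher from 56.8% to 31.6% and from 65.2% to 29.1%. With the replicate block the 8 genes gave 1, 5, 5, 1, 4 and 1 calls (depletion under mock, TSA in siCONT cells, combination, depletion under TSA, TSA in depleted cells, interaction), the same counts as without it, and STARD4 with depletion under mock had an adjusted p of 0.0626. In the depleted groups the number is the siRNA, and the correlation of deviations between them was 0.337. In the other pairs of groups, at −0.056 to 0.074, the arrays shared only a number. With TSA in depleted cells the block changed no call of the 8 genes.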
